A study of Mus musculus with 6 samples.

Results

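The intermediate filament genes of astrocytes and neural progenitors were followed in cultured mouse brain astrocytes labelled as knockout (KO) in a study of the adhesion G protein-coupled receptor ADGRB1 and in wild-type astrocytes (WT). The group holds 4 genes, Gfap, Vim, Synm and Nes, taken by symbol from a table of 24318 genes. Each was measured in 3 KO and 3 WT bulk poly-A RNA libraries, and the study's title concerns the part of ADGRB1 in the engulfment of excitatory synapses by astrocytes. The labels give brain as the tissue and astrocytes as the cell type for all 6 libraries, and no strain, age, deleted exon or count of animals or cultures, so a p-value here reflects only how much these libraries vary, part of which may be technical.

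Intermediate filaments are rope-like polymers that give a cell mechanical strength. In astrocytes they are built mainly from glial fibrillary acidic protein (Gfap) and vimentin (Vim), which form filaments together. Nestin (Nes), made by neural stem and progenitor cells, and synemin (Synm) do not form filaments on their own and join those of vimentin. Many mature astrocytes are known to hold Gfap and little nestin, and injury raises Gfap, vimentin and nestin in astrocytes. Gfap is switched on late in brain development, downstream of STAT3 and nuclear factor I (NFI) and against the oligodendrocyte factors Olig1 and Olig2.

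The 4 genes lie on separate chromosomes of the GRCm38 build. Gfap (ENSMUSG00000020932.14) is on the minus strand of chromosome 11 at 102887336 to 102900912, and Vim (ENSMUSG00000026728.9) on the plus strand of chromosome 2 at 13573927 to 13582826. Nes (ENSMUSG00000004891.16) is on the plus strand of chromosome 3 at 87971078 to 87980451, and Synm (ENSMUSG00000030554.16) on the minus strand of chromosome 7 at 67730160 to 67759742. Their exons cover 4.22 kb for Gfap, 4.74 kb for Vim, 6.42 kb for Nes and 7.93 kb for Synm. Synm shares 84 exonic bases with Ttc23 and 426 with Gm45102, both on the opposite strand, so its counts are uncertain to that extent. Exons of the other 3 genes overlap no other gene of that annotation. The counts are totals per gene, so splice forms such as the alpha and delta forms of Gfap are summed.

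The start regions of the genes are shown because textbook regulators of Gfap, Vim and Nes are compared further on. The sequences are those of RefSeq (GRCm38.p6), which had an entry for each of the 4 genes. The 250 bases before the RefSeq start of Gfap (chr11:102897201-102897450, minus strand) read as follows, with no match to any of the motifs searched, and that start lies inside the longer span of the gene given above.
Gfap: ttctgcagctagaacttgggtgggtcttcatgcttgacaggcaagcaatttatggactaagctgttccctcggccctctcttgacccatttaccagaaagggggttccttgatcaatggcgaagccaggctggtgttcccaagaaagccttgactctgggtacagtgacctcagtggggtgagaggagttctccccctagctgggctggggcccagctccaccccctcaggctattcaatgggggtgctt
The motifs were searched on both strands of windows from 250 bases before to 50 after each start. They were TTCNNNGAA for STAT factors, the full NFI palindrome and TTGGCA as a single arm of it, ACAAT for SOX factors, TGANTCA for AP-1, GGGCGG for the GC box, CCAAT for the CCAAT box and TATAAA for the TATA box. The NFI palindrome can hold the single arm, and an arm can overlap a CCAAT box on the opposite strand. A stretch of 30 bases is shown for 1 match of each gene, with the match in capitals.
Gfap, STAT motif across the start: atgggggtgcTTCCAGGAAgtcaggggcag
Vim, TATA box: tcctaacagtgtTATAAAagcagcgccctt
Synm, CCAAT box read on the opposite strand: ggccgcgtcctgATTGGctggaggcgatgg
Nes, SOX motif: cagggcgaggctACAATttgattcttctct
The stretches are chr11:102897183-102897212 for Gfap, chr2:13574267-13574296 for Vim, chr7:67759803-67759832 for Synm and chr3:87970920-87970949 for Nes. All 250 bases before the RefSeq start of Vim lie in annotated exons of Vim, so its matches are not in purely upstream sequence. For Nes 15 of the 250 bases lie in its exons. Of 32851 such windows, 8.30% held the STAT motif, 13.6% the TATA box, 37.4% the CCAAT box and 31.0% the SOX motif. Gfap had 1 match in all, Synm had 1, Vim had 3 with 2 further CCAAT boxes, and Nes had 3 with 2 GC boxes, which 35.7% of the windows held. No NFI or AP-1 motif had a match in these 4 windows. A match describes letters and does not show binding, and the windows leave out distant control regions.

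The libraries held 19251607 to 20334442 counts in KO and 17460090 to 18897340 in WT. The targeted gene, Adgrb1, was lower in each KO library than in each WT library and still carried counts in KO. It stood at 138 ± 20.3 CPM (counts per 1000000, TMM-scaled) in KO and 327 ± 33.1 CPM in WT (SD, n = 3 each), with an edgeR quasi-likelihood adjusted p of 0.0684. Adgrb1 shares 95 exonic bases with Gm26117 on the same strand, so its counts are uncertain to that extent. Over all 14131 genes tested, edgeR called 0 at an adjusted p of 0.05 (0%), 871 passed an unadjusted p of 0.05 (6.16%), and the groups did not overlap for 1576 (11.2%). DESeq2 called 78 genes and limma voom 4. Of 22 astrocyte identity genes all were tested, and their summed level was 72467 to 89628 CPM in KO and 66348 to 72239 CPM in WT. Markers of other brain cells were also present. Those of mature oligodendrocytes summed to 11301 to 15192 CPM in KO and 7685 to 14891 CPM in WT, and those of microglia and macrophages to 1707 to 2110 CPM in KO and 1962 to 2839 CPM in WT. Mbp alone made up most of the mature oligodendrocyte sum. The libraries differed as well in a trend with GC content. GC-rich genes were relatively high in KO replicates 1 and 2 and WT replicate 2, and relatively low in KO replicate 3 and WT replicates 1 and 3, with the weakest trend in WT replicate 2.

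Gfap was by far the most abundant of the 4 filament mRNAs, and the order of the levels per exonic length was Gfap, Vim, Synm, Nes in each of the 6 libraries. Gfap averaged 256 ± 108 RPKM (counts per kilobase of exon, on the CPM scale) in KO and 145 ± 8.71 RPKM in WT (SD, n = 3 each). Vim averaged 35.8 ± 3.48 RPKM in KO and 24.6 ± 6.48 RPKM in WT. Synm averaged 5.10 ± 1.30 RPKM in KO and 6.70 ± 1.92 RPKM in WT. Nes, at the bottom of the order, averaged 2.55 ± 0.823 RPKM in KO and 2.87 ± 1.15 RPKM in WT. The ranges of Gfap, Vim and Synm over the 6 libraries did not meet, while those of Synm (3.81 to 8.62 RPKM) and Nes (1.62 to 4.13 RPKM) did. The pair came closest in WT replicate 3, at 4.79 RPKM for Synm and 4.13 RPKM for Nes. Of the summed level of the 4 genes, Gfap made up 84.1 ± 6.36% in KO and 80.9 ± 3.71% in WT, and Vim 13.1 ± 4.88% in KO and 13.7 ± 3.35% in WT. Synm made up 1.92 ± 1.01% in KO and 3.71 ± 0.944% in WT, and Nes 0.967 ± 0.505% in KO and 1.62 ± 0.733% in WT.

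**Figure D1:**
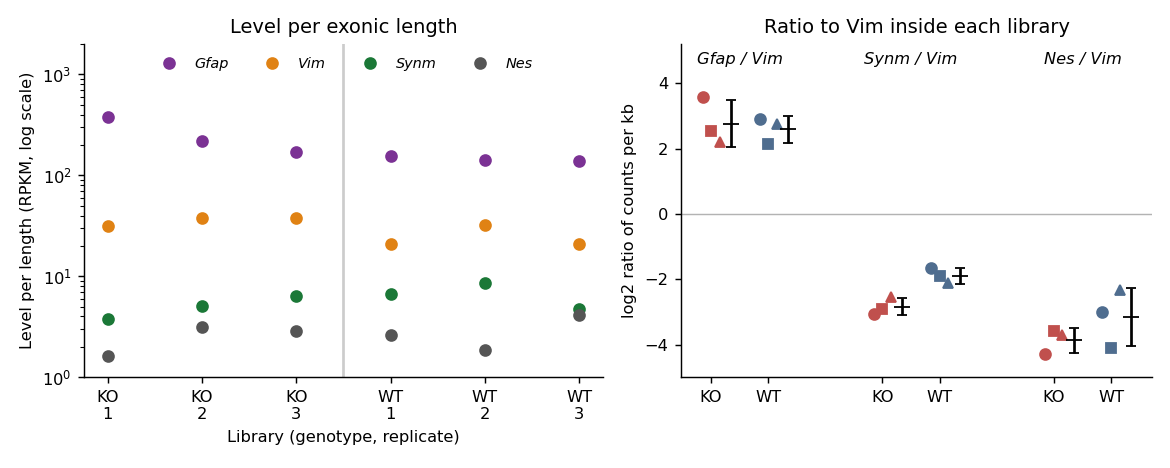
Left, level of each filament gene per exonic length (RPKM, log scale) in the 3 KO and 3 WT libraries. Right, log2 ratio of counts per kilobase to those of Vim inside each library, with the mean and SD of 3 libraries in black; Gfap lies above Vim and Synm and Nes below it in all 6 libraries, and the Synm ratio is lower in the 3 KO libraries than in the 3 WT libraries.

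Gfap, the filament protein used to mark astrocytes and their reactive state, stood higher in KO without passing the test. It held 1596, 925 and 724 CPM in KO replicates 1, 2 and 3 and 654, 593 and 589 CPM in WT replicates 1, 2 and 3. Each KO library lay above each WT library, but KO replicate 3 was close to WT replicate 1 and KO replicate 1 stood far above the rest. A log2 fold change of 0.82 ± 0.26 (SE) came from edgeR, whose quasi-likelihood p was 0.0122 unadjusted and 0.650 adjusted over all genes. That p ranks 264 of 14131. Groups that do not overlap with KO higher were found for 5.28% of genes tested. Without KO replicate 1 the log2 fold change was 0.42. Within the 3 libraries in which GC-rich genes were high, the difference in log2 CPM was 1.03, and within the other 3 it was 0.22, with 1 genotype represented by a single library in each set. CPM are shares of a library taken from mixed cells, so fewer or more cells of a type cannot be told apart from less or more RNA per cell.

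The KO libraries spread more in Gfap than the WT libraries did, a difference that was not tested. The coefficient of variation was 42.2% over the KO libraries and 6.0% over the WT libraries. Among 121 tested genes within 1.5-fold of its level, Gfap itself included, the median was 14% in KO and 10.4% in WT. Of these genes, 4.96% varied at least as much as Gfap in KO and 78.5% in WT. The lowest count of Gfap was 10404, at which counting error is 0.98%, so the spread is far beyond counting error in both genotypes.

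Vim, which encodes the filament protein shared by astrocytes, progenitors and cells of connective tissue, was higher in KO by a smaller step. It held 151, 181 and 178 CPM in KO replicates 1, 2 and 3 and 99.2, 152 and 99.1 CPM in WT replicates 1, 2 and 3. WT replicate 2 lay at the level of KO replicate 1, so the groups overlapped, and the other WT libraries lay well below. A log2 fold change of 0.54 ± 0.19 (SE) came from edgeR, whose quasi-likelihood p was 0.0176 unadjusted and 0.708 adjusted over all genes. The difference in log2 CPM was 0.12 among the libraries with GC-rich genes high and 0.84 among the others. Gfap and Vim thus both stood above 0 within each set.

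Synm, a large filament protein that ties vimentin and desmin filaments to adhesion and membrane complexes, leaned the other way. It held 30.2, 40.3 and 50.8 CPM in KO replicates 1, 2 and 3 and 53.1, 68.4 and 37.97 CPM in WT replicates 1, 2 and 3. The groups overlapped, since WT replicate 3 lay below KO replicates 2 and 3. A log2 fold change of -0.39 ± 0.25 (SE) came from edgeR, whose quasi-likelihood p was 0.146 unadjusted and 0.826 adjusted over all genes. The difference did not keep its direction within the sets of libraries. It was -0.97 where GC-rich genes were high and 0.18 where they were low.

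Nes, the nestin gene, was the least abundant of the 4 and showed no stable direction. It held 10.4, 20.2 and 18.5 CPM in KO replicates 1, 2 and 3 and 16.7, 12.02 and 26.5 CPM in WT replicates 1, 2 and 3. The KO libraries lay within the WT range apart from KO replicate 1, which was the lowest of all. A log2 fold change of -0.17 ± 0.34 (SE) came from edgeR, whose quasi-likelihood p was 0.629 unadjusted and 0.915 adjusted over all genes. It was above 0 without KO replicate 1 (0.07), without WT replicate 3 (0.19), with a batch term for the 2 GC sets (0.059) and with 1 surrogate variable (0.18). Counting error at its lowest count of 198 is 7.11%, against a coefficient of variation of 32.2% in KO and 40.2% in WT.

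**Figure D2:**
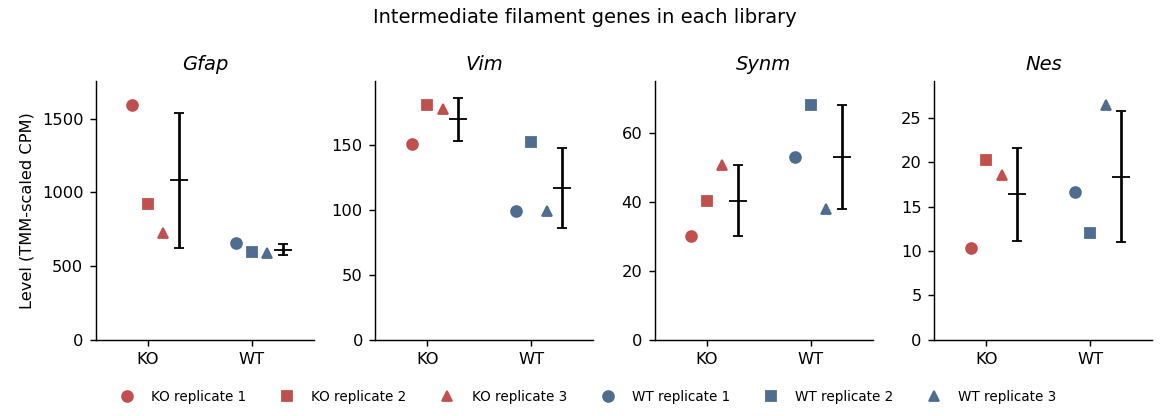
Level of each filament gene in TMM-scaled CPM (linear axes from 0), KO left of WT, with a symbol per replicate and the mean and SD of 3 libraries in black. The 3 KO values of Gfap (724 to 1596) lie above the 3 WT values (589 to 654), while the groups overlap for Vim, Synm and Nes.

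In all, 2 of the 4 genes passed an unadjusted p of 0.05, both higher in KO and 0 lower, where 2.34% of genes tested were higher and 3.83% lower by that measure. The groups did not overlap with KO higher for 1 member and with KO lower for 0, against 5.28% and 5.87% of genes tested. After adjustment 0 members passed. The genes were chosen with these results known, so the counts are a description. Over the 6 libraries Gfap and Vim differed from each other by a root-mean-square of 0.48 in log2 CPM after each was centred on its mean. The same measure was 0.52 between Vim and Synm, 0.61 between Nes and Synm, 0.66 between Vim and Nes, 0.83 between Gfap and Synm and 0.84 between Gfap and Nes. The median over all genes compared in this way was 0.51 for Gfap and 0.39 for Vim, so the pair was about as far apart as either gene is from many others.

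Ratios inside a library are free of the scaling between libraries, but not of the trend with GC content. The GC content of the longest transcript was 55.5% for Gfap and for Nes, 51.4% for Synm and 46.5% for Vim. The Gfap to Vim ratio per kilobase was 11.9, 5.74 and 4.58 in KO replicates 1, 2 and 3 and 7.42, 4.38 and 6.68 in WT replicates 1, 2 and 3. The genotypes overlapped, with a log2 difference of 0.18 and a two-sided exact permutation p of 0.8. The sign depended on single libraries, since the difference was -0.23 without KO replicate 1 and -0.051 without WT replicate 2. The Nes to Vim ratio was 0.0508, 0.0827 and 0.0772 in KO and 0.124, 0.0583 and 0.198 in WT, a log2 difference of -0.71 (exact permutation p = 0.3), and WT replicate 2 lay within the KO range.

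The balance between synemin and vimentin transcripts was the one of the 3 ratios whose groups did not overlap. The Synm to Vim ratio was 0.120, 0.133 and 0.171 in KO replicates 1, 2 and 3 and 0.320, 0.268 and 0.229 in WT replicates 1, 2 and 3. Each KO library lay below each WT library, with a log2 difference of -0.95 and a two-sided exact permutation p of 0.1, the smallest that 3 against 3 can give. Adjusted over the 3 ratios by Benjamini-Hochberg, the exact permutation p was 0.3 for Synm, 0.45 for Nes and 0.8 for Gfap. Leaving out each library in turn kept the difference between -1.10 and -0.83. Since Vim itself stood higher in KO, a lower ratio to Vim was common. Over 13730 tested genes with no count of 0 the median log2 difference of the ratio to Vim was -0.55, 27.0% had all KO libraries below all WT libraries, and 15.5% had a difference as low as that of Synm or lower. Ratios to Vim with KO above WT in all libraries were found for 0.182% of genes.

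For the astrocyte identity list, 21 of 22 genes lay above 0 and the median log2 fold change was 0.26, against a median of 0.01 over all genes tested. Set against the median of those 22 genes in the same library, the difference in log2 level was 0.47 for Gfap (two-sided exact permutation p = 0.1), 0.30 for Vim (0.2), -0.65 for Synm (0.2) and -0.42 for Nes (0.5). None of the 4 was past 0.05 after Benjamini-Hochberg adjustment (smallest 0.267, exact permutation test). On that scale Gfap lay higher in each KO library than in each WT library. The closest were KO replicate 3 at -0.037 and WT replicate 1 at -0.16. A two-sided exact permutation p of 0.1 is the smallest that 3 against 3 can give. The share of all genes that separate on that scale was not computed. S100b, the calcium-binding protein of astrocytes, was the astrocyte identity gene past an unadjusted p of 0.05, at 445 ± 47.5 CPM in KO and 328 ± 47.5 CPM in WT.

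The rest of the filament family gave values on both sides of 0. All 20 other intermediate filament genes listed were in the table and 13 passed the low-count filter. The other 7, among them keratins and peripherin, held at most 17 counts in a library. Of the 13, 0 were higher and 2 lower at an unadjusted p of 0.05, 11 did not pass, and the median log2 fold change was -0.07. The shares over all genes tested were 2.34% higher and 3.83% lower. Bfsp2, a beaded filament protein known from the eye lens, stood at 19.7 ± 2.99 CPM in KO and 29.4 ± 5.83 CPM in WT (log2 fold change -0.57 ± 0.21, SE). Ina, the neuronal filament protein alpha-internexin, stood at 4.00 ± 1.37 CPM in KO and 6.92 ± 0.247 CPM in WT. Exons of both overlap a gene on the opposite strand, so both are uncertain. The 4 with the highest CPM, a scale that does not account for length, were 3 nuclear lamins, the filaments of the nuclear envelope, and Iffo1. Exons of Iffo1 overlap Gapdh on the opposite strand, so its values are uncertain. Lmna stood at 36.0 ± 2.96 CPM in KO and 28.3 ± 2.84 CPM in WT, Lmnb1 at 41.7 ± 6.32 CPM in KO and 36.6 ± 12.6 CPM in WT, and Lmnb2 at 32.4 ± 6.31 CPM in KO and 30.7 ± 0.647 CPM in WT. Lmna was higher in each KO library than in each WT library, and its unadjusted edgeR p was 0.0618. Bfsp2 and Ina were lower in each KO library than in each WT library. Of the 13, groups thus did not overlap for 1 with KO higher and 2 with KO lower, against 5.28% and 5.87% of all genes tested. Iffo1 stood at 49.8 ± 1.96 CPM in KO and 54.6 ± 5.42 CPM in WT.

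Genes that anchor, modify or clear filaments lay on both sides of 0. Of 12 tested linkers and motors, 1 was higher and 0 lower at an unadjusted p of 0.05, against 2.34% higher and 3.83% lower over all genes tested. Of these 12, 10 lay below 0, and the median log2 fold change was -0.12. That gene was Plec, plectin, which links intermediate filaments to each other and to the membrane, at 89.0 ± 12.2 CPM in KO and 64.3 ± 9.56 CPM in WT (log2 fold change 0.47 ± 0.17, edgeR adjusted p = 0.713). Plec shares exons with Parp10 on the same strand and is uncertain. Of 22 kinases, chaperones and turnover genes, 2 were higher and 1 lower by the same measure, 12 lay below 0, and the median was -0.03. Hspb8 and Bag3 are partners in a chaperone complex that clears misfolded proteins. Hspb8 stood at 84.4 ± 15.6 CPM in KO and 57.0 ± 6.15 CPM in WT, and Bag3 at 54.2 ± 3.29 CPM in KO and 40.3 ± 2.53 CPM in WT, both without overlap of the groups. Of the 22, groups did not overlap for 2 with KO higher and 0 with KO lower, against 5.28% and 5.87% of all genes tested. Pak1, a kinase of the cytoskeleton, stood at 90.4 ± 11.4 CPM in KO and 121 ± 16.2 CPM in WT. None of these passed after adjustment over all genes.

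Of 25 tested activators of Gfap, STAT, NFI and BMP pathway genes included, 0 passed an unadjusted p of 0.05, and their median log2 fold change was 0.02. The groups did not overlap for 3 of the 25, all higher in KO, against 5.28% of all genes tested. They were the cytokine receptor genes Il6st and Cntfr and the receptor gene Notch1, named after their values were seen, with log2 fold changes of 0.24, 0.30 and 0.27. Exons of Notch1 overlap other genes on the opposite strand, so it is uncertain. Of 14 tested repressors, 1 was higher and 3 lower at an unadjusted p of 0.05, against 2.34% and 3.83% of all genes tested. The median of the repressors was -0.04. Their groups did not overlap for 1 with KO higher and for 4 with KO lower, against 5.28% and 5.87% of all genes tested. Olig2 stood at 152 ± 22.4 CPM in KO and 229 ± 13.6 CPM in WT, and Olig1 at 475 ± 47.4 CPM in KO and 662 ± 46.3 CPM in WT, without overlap of the groups for either gene. Exons of Olig1 overlap a gene on the opposite strand, so it is uncertain. Both are transcription factors of the oligodendrocyte lineage. The 11 oligodendrocyte precursor markers, Olig1 and Olig2 among them, had a median of -0.58, with 0 higher and 8 lower, and summed to 2408 to 2783 CPM in KO and 3020 to 3661 CPM in WT. Their part in the values of Gfap and Vim was not tested. Erbb4, a neuregulin receptor, stood at 4.65 ± 1.23 CPM in KO and 8.76 ± 3.30 CPM in WT. Socs1, which blocks signalling through JAK kinases, stood at 2.29 ± 0.452 CPM in KO and 0.628 ± 0.446 CPM in WT, near the lower end of what was tested.

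Of 17 tested Nes and Vim regulators, 1 was higher and 1 lower at an unadjusted p of 0.05, and the median log2 fold change was 0.01. Over all genes tested, 2.34% were higher and 3.83% lower. Sox1, a transcription factor of neural progenitors, stood at 136 ± 7.94 CPM in KO and 105 ± 5.36 CPM in WT. Pou3f1, a POU transcription factor also active in myelinating glia, stood at 18.5 ± 5.79 CPM in KO and 30.9 ± 5.26 CPM in WT. Of 17 tested radial glia and progenitor markers, 2 were higher and 0 lower, with a median of 0.22. Hes5, a Notch target, stood at 221 ± 10.4 CPM in KO and 140 ± 18.9 CPM in WT, and Msi1, an RNA-binding protein of progenitors, at 79.7 ± 9.87 CPM in KO and 57.5 ± 7.46 CPM in WT. Sox1, Pou3f1 and Hes5 overlap another gene in their exons and are uncertain.

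Of 26 tested genes of reactive astrocytes, 2 were higher and 2 lower at an unadjusted p of 0.05, and the median log2 fold change was -0.05. By that measure 2.34% of all genes tested were higher and 3.83% lower. Serpina3n, a secreted protease inhibitor that increases in reactive astrocytes, held 34.5, 46.7 and 46.8 CPM in KO replicates 1, 2 and 3 and 20.6, 39.9 and 19.5 CPM in WT replicates 1, 2 and 3. Like Vim, it was high in WT replicate 2, which lay above KO replicate 1. S100a10, a partner of annexin A2, stood at 23.8 ± 6.88 CPM in KO and 15.1 ± 5.24 CPM in WT. On the lower side Cd14, a co-receptor for bacterial products that microglia also express, stood at 19.2 ± 3.09 CPM in KO and 28.1 ± 4.43 CPM in WT, and the cytokine gene Clcf1 at 0.848 ± 0.302 CPM in KO and 2.25 ± 0.292 CPM in WT. Clcf1, at 0.524 to 2.57 CPM in the 6 libraries, lay near the lower end of what was tested. It also shares exons with another gene on the same strand and is uncertain.

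**Figure D3:**
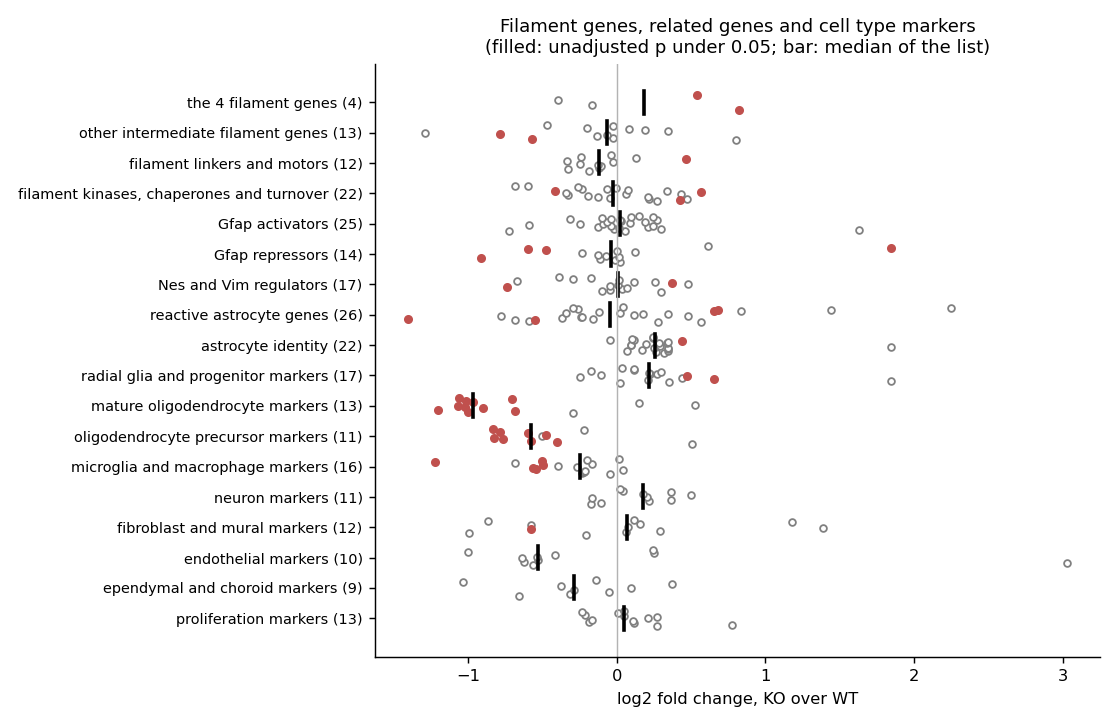
Log2 fold change, KO over WT, of each tested gene of the filament group, of related lists and of cell type markers, with the number tested in brackets. Filled points passed an unadjusted p of 0.05, black bars are list medians; Gfap and Vim lie right of 0 at 0.82 and 0.54, and mature oligodendrocyte markers have a median of -0.97.

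Vim is also expressed by several other cell types a brain culture can hold, and Nes by some of them. The fibroblast and mural cell markers (12 of 14 tested) showed a median log2 fold change of 0.07, and all 14 summed to 303 to 331 CPM in KO and 311 to 399 CPM in WT. The 10 endothelial markers had a median of -0.53, with 7 below 0 and 3 above, and summed to 11.0 to 87.1 CPM in KO and 9.51 to 44.1 CPM in WT. Cldn5, singled out after its values were seen, made up most of the highest KO sum, at 64.4 CPM in KO replicate 3. The 12 ependymal and choroid plexus markers, of which 9 were tested, had a median of -0.29 and summed to 78.9 to 92.9 CPM in KO and 56.4 to 131 CPM in WT. The 16 microglia and macrophage markers had a median of -0.25, with 0 higher and 5 lower at an unadjusted p of 0.05. Over all genes tested, 2.34% were higher and 3.83% lower by that measure. The 13 proliferation markers had a median of 0.05 and summed to 208 to 280 CPM in KO and 186 to 305 CPM in WT. In these lists the ranges of KO and WT sums overlapped. No marker of these lists was at 0 in all 6 libraries. The 13 mature oligodendrocyte markers had a median of -0.97, with 0 higher and 10 lower at an unadjusted p of 0.05, while their summed CPM, given above, did not run that way. The part of these cells in the levels of Vim and Nes was not tested.

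The genes whose pattern over the 6 libraries was most like that of a filament gene were sought among named genes of at least 20 CPM, 7922 or 7923 for each. Likeness was the root-mean-square difference in centred log2 CPM, and exon overlaps of these genes were not looked up. Closest to Vim was Adam23, a membrane protein of neurons and glia, at 0.08, with 103, 118 and 118 CPM in KO replicates 1, 2 and 3 and 75.3, 104 and 72.3 CPM in WT replicates 1, 2 and 3. Adam23 thus shared the high WT replicate 2 of Vim. The next were the glutathione transferase gene Gstt1 (0.11) and the sialyltransferase gene St8sia5 (0.11), against a median of 0.39 over all candidates. Closest to Synm was Nkain2 (0.09), followed by Micu2 (0.13), a regulator of mitochondrial calcium uptake, and the cyclin gene Ccng1 (0.15), against a median of 0.44.

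Gfap had no match as close. Its nearest gene was Ndufc1, a subunit of respiratory complex I, at 0.18, with 40.8, 29.9 and 23.04 CPM in KO replicates 1, 2 and 3 and 19.0, 22.7 and 17.6 CPM in WT replicates 1, 2 and 3. Tmem160 (0.18) and Cib1 (0.19), a calcium- and integrin-binding protein, followed, against a median of 0.51. For Nes the nearest were Eml1 (0.15), a microtubule-binding protein, Zbed6 (0.16) and the chromatin regulator Jarid2 (0.18), against a median of 0.50. Each of the 3 was lowest in KO replicate 1 or WT replicate 2 and highest in WT replicate 3, as Nes was.

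**Figure D4:**
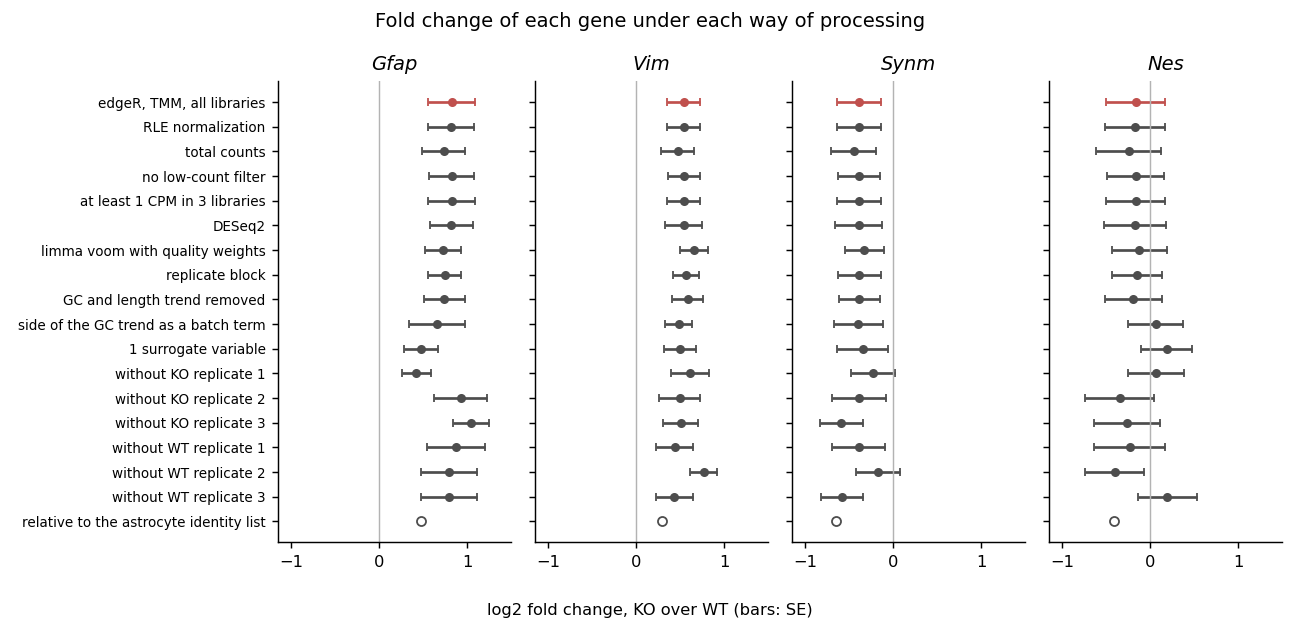
Log2 fold change, KO over WT, of each filament gene with all libraries (top, red) and under 17 other ways of processing; bars are SE, and the open circle has none. Gfap stays between 0.42 and 1.04, Vim between 0.30 and 0.77 and Synm between -0.65 and -0.18, while Nes lies on both sides of 0.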

How the data were processed

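In the table the authors deposited, each gene symbol has an estimated count per library, with no normalization. The submitters' processing notes name TopHat2, featureCounts and the builds GRCm38 and mm9, without versions or roles. The sources used here do not give the annotation, the strand setting or how shared reads were treated. By library, 0.711% to 0.847% of values were not whole (tolerance 0.01), and values were rounded before testing. Columns were matched to libraries by name. Replicates differed far beyond sampling noise (chi-square per degree of freedom of 22.3 or more), so none was merged.

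KO was compared with WT by edgeR 4.0.16 in R 4.3.3: filterByExpr, TMM, quasi-likelihood F test with robust dispersion, Benjamini-Hochberg adjustment over 14131 genes at 0.05. SE is the log2 fold change over the square root of F. Log2 CPM used a prior count of 2. The fit was tested on simulated data. RPKM uses the union of exons of GENCODE M21 (GRCm38), in which 98.4% of symbols were found. The members, the 17 related lists and the naming rule (per list up to 4 genes in each direction by unadjusted p, the 4 other filament genes of highest CPM, and per member the 3 genes nearest in pattern among those of at least 20 CPM) were chosen with earlier results of these data known. Protein sequences were not used here. Alternatives were other normalizations, filters and tests (DESeq2 1.42.0, limma 3.58.1), the replicate number as a block, GC corrections, sva 3.50.0 and each library left out. The scale relative to astrocyte genes was added after seeing the data.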

Additional observations from a re-analysis of the deposited data

How the results depend on the processing

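Over 17 alternatives Gfap and Vim stayed above 0 and Synm below 0, although Synm was at 0.18 within the libraries with GC-rich genes low, and none of the 4 genes passed an adjusted p of 0.05 in any fit. The smallest adjusted p was 0.0646 for Gfap, without KO replicate 3, and its adjusted p was 0.0989 with DESeq2. The scale relative to astrocyte genes has exact permutation tests in place of adjusted p-values. Leaving out each library in turn gave 0.42 to 1.04 for Gfap, 0.43 to 0.77 for Vim, -0.59 to -0.18 for Synm and -0.41 to 0.19 for Nes. Nes turned to 0.059 with a batch term for the GC sets and 0.18 with 1 surrogate variable; the cause was not tested. The ratio to Vim ranged from -0.23 to 0.46 for Gfap, -1.19 to -0.31 for Nes and -1.10 to -0.83 for Synm when a library was left out. With the GC and length trend removed, the log2 difference of the ratio to Vim was 0.065 for Gfap, -0.79 for Nes and -0.98 for Synm. The exonic length used for each gene cancels in these differences and was not varied. Genes called over the whole table numbered 6 with no low-count filter, 78 with DESeq2, 4 with limma voom, 44 with the replicate block, 15 with the GC and length trend removed, 88 with the GC sets as a batch term, 92 with 1 surrogate variable, and 0 to 31 when a library was left out (31 without KO replicate 3). Replicate numbers were not taken as pairs, since same-numbered libraries deviated together with correlations of 0.09, 0.15 and 0.28, although each library correlated best with its own number. With the replicate block Gfap was at 0.74, Vim at 0.56, Nes at -0.16 and Synm at -0.39, and no call of these genes changed. With 3 libraries a group and no counting limit for these genes, the spread between libraries sets the precision.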

Other observations

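KO replicate 1, which held the most Gfap, was low in some other genes of the related lists, singled out after their values were seen. Fabp7, a fatty acid-binding protein of radial glia and astrocytes, held 116, 396 and 1159 CPM in KO replicates 1, 2 and 3 and 93.6, 199 and 173 CPM in WT replicates 1, 2 and 3. Cldn5, a tight junction protein of endothelial cells, held 1.15, 32.7 and 64.4 CPM in the KO libraries and 0.711, 5.19 and 6.08 CPM in the WT libraries. The sphingosine-1-phosphate receptor gene S1pr3 held 0.576, 7.21 and 13.9 CPM in the KO libraries and 2.02, 2.34 and 3.59 CPM in the WT libraries, and it overlaps another gene on the opposite strand, so it is uncertain. For these genes KO replicate 1 lay within or below the WT range and KO replicate 3 above it, the reverse of Gfap among the KO libraries. Fabp7 was not typical of the astrocyte identity list in this. Most genes of that list fell from KO replicate 1 through 2 to 3 as Gfap did, among them Aldoc, Clu and Ndrg2. Others, Gja1 and Aqp4 among them, did not. These too were named after their values were seen.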
